A study of Mus musculus with 21 samples.

Results

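The genes described here are 35 interferon-stimulated genes outside the better known IFIT, OAS and guanylate-binding protein families, among them the Mx GTPases, the RNA sensors, the PML nuclear body proteins, several TRIM and PARP proteins, and galectin-9. They were chosen by name, and each was read from the probe annotated to it with the highest mean log2 intensity over the 21 arrays. Of the 35 genes, 32 had a named probe (Ifi44, Dtx3l and Znfx1 were not analysed here), and 30 passed a filter on dim probes, out of 10576 genes that passed among 16593 named in all. Xaf1 and Nmi did not pass, with highest intensities of 47.6 and 48 against a median of all values of 47.3, whereas Rtp4, Isg20 and Parp9 passed with highest intensities of 76.9, 101.9 and 59.5.

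The arrays measured dendritic cells grown from bone marrow of C57Bl6 mice. The genotypes were crel-/-relb-/- (loss of both c-Rel and RelB), relb-/- (loss of RelB alone) and wild type (WT), and both genes encode NF-kB subunits. Cells of each genotype were taken without stimulation (0 h) or were exposed for 1, 8 or 24 h to CpG, whose unmethylated DNA motif engages TLR9, or to Pam3CSK4, a synthetic lipopeptide that engages TLR2 paired with TLR1. Each genotype thus has 7 arrays, 1 for each condition, and the labels name neither the culture conditions nor the animals behind an array. No condition is replicated, so the p-values below measure how constant a difference was over conditions or over genotypes in these arrays, and not its spread between animals.

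Type I interferons, made after pathogen receptors such as the Toll-like receptors are engaged, bind a receptor on the producing cell and its neighbours. Through the kinases JAK1 and TYK2 the receptor activates transcription factors, among them STAT2 and IRF9, that act at the interferon-stimulated response element (ISRE) in the promoters of their target genes. In dendritic cells these targets include sensors of foreign RNA and DNA, proteins that block viral replication or release, and enzymes that modify other proteins with ISG15, ubiquitin or ADP-ribose. Several targets, such as the RNA sensors, themselves feed interferon production.

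The promoter sequences of the members were searched for the ISRE core GAAANNGAAA on both strands, because this element is the known route from interferon to these genes. RefSeq promoter windows (250 bases before to 50 after the start, build GRCm38.p6) were at hand for 25 of the 35 genes. The core stood in the windows of 8 of these 25 genes, namely Phf11a, Trim30a, Ddx58, Eif2ak2, Bst2, Ifih1, Lgals9 and Trim21, and in 3.99% of all 27025 genes with a window. The letters TTCNNNGAA of the STAT-binding GAS element, which can overlap the ISRE core, stood in 5 of the 25 genes and in 9.55% of all genes. A match is a description of the letters and no evidence of binding. The following stretches run from 70 bases before the start of transcription over 30 bases from the start on, 5′ to 3′ along the gene, for the 4 members with a core and the largest difference between relb-/- and WT cells. All 4 genes lie on the minus strand and the capitals mark the core, which appears as its reverse complement where it lies on the opposite strand.
Phf11a, chr14:59297493-59297592, core 29 bases before the start: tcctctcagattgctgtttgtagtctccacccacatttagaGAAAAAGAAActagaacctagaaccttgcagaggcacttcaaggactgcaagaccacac
Trim30a, chr7:104465164-104465263, core on the opposite strand 36 bases before the start: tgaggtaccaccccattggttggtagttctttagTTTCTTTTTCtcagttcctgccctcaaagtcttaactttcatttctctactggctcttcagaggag
Ddx58, chr4:40239796-40239895, core on the opposite strand 2 bases after the start: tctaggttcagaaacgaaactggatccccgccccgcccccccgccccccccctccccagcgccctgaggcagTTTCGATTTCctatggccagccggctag
Eif2ak2, chr17:78882543-78882642, core 18 bases after the start: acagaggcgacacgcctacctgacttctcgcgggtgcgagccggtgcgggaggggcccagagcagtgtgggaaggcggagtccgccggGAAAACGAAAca

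Nearly the whole module was expressed more highly in relb-/- cells than in WT cells. Genotypes were compared within the 7 conditions with limma on log2 intensities, and a call needed an adjusted p (Benjamini-Hochberg, over all 10576 genes tested) under 0.05. Of the 30 tested members, 27 were higher in relb-/- cells and 0 were lower, where 6.04% of all genes tested were called higher and 5.64% lower. The median log2 difference of the members was 0.77, against -0.01 for all genes tested, and the values of all 30 lay above 0. Isg20 passed the filter on dim probes only through its relb-/- arrays, so its difference had to show and it is no support, and without it 26 of 29 members were called higher. The 3 members that were not called had values of 0.58 ± 0.19 for Bst2 (adjusted p = 0.0514), 0.54 ± 0.19 for Ube2l6 (adjusted p = 0.0682) and 0.17 ± 0.056 for Parp9 (adjusted p = 0.0603). In extracts of whole cultures, a change in the share of expressing cells and a change in RNA per cell cannot be told apart.

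**Figure D1:**
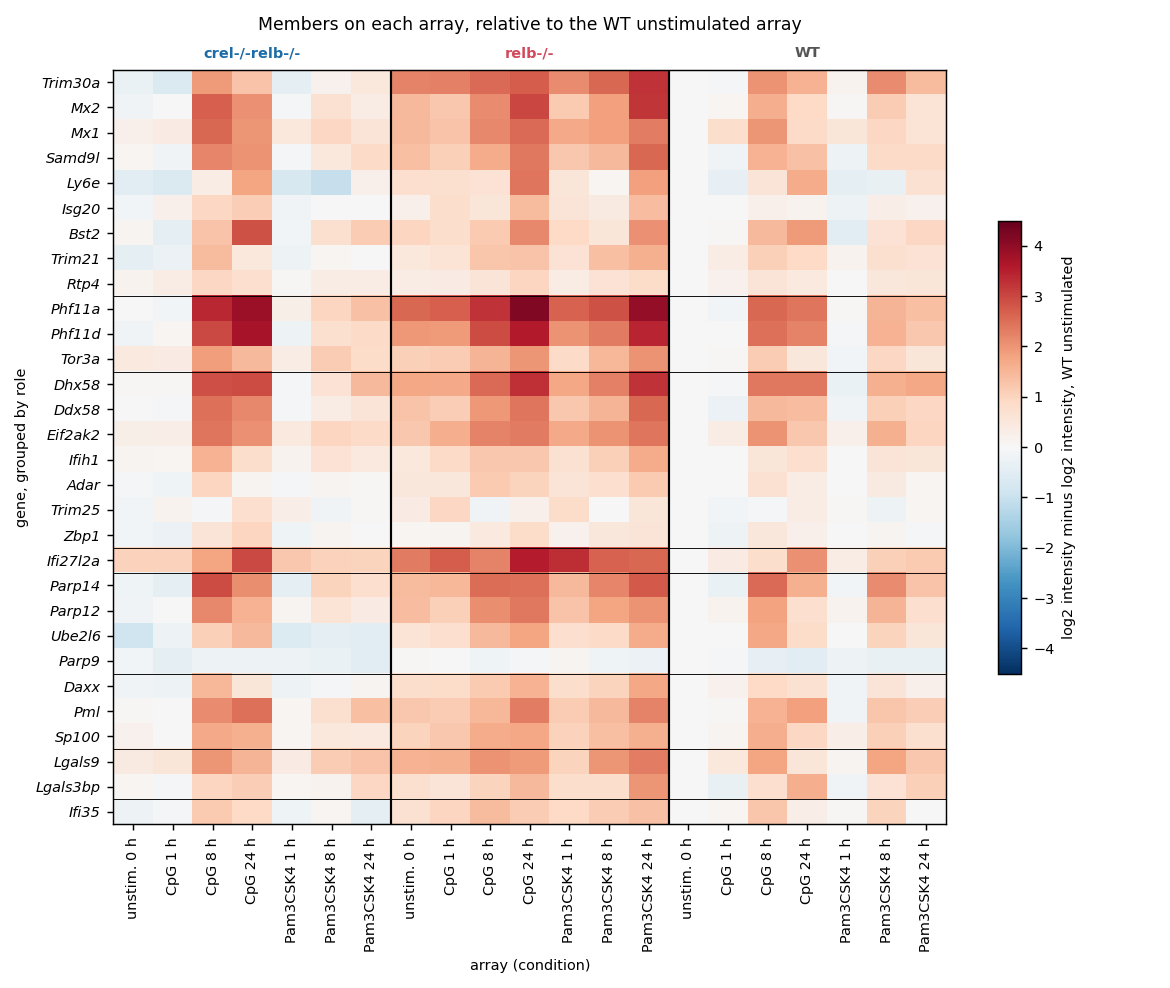
Log2 intensity of each of the 30 tested members (rows, grouped by role) on each of the 21 arrays (columns), minus its log2 intensity on the WT unstimulated array, with red for higher and blue for lower. The relb-/- block is red on its unstimulated and 1 h arrays, while the crel-/-relb-/- and WT blocks are pale there and redden at 8 and 24 h, in crel-/-relb-/- cells mainly with CpG.

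Among the sensors of foreign nucleic acids, 7 of 7 tested genes were higher in relb-/- than in WT cells. Dhx58, which encodes LGP2, a regulator of the other RNA sensors, had intensities in relb-/- cells of 295 unstimulated, 292, 522 and 870.5 after 1, 8 and 24 h with CpG, and 298, 428 and 852 after 1, 8 and 24 h with Pam3CSK4. In WT cells its intensities were 88.8 unstimulated, 86.6, 456 and 457 after 1, 8 and 24 h with CpG, and 71.4, 271 and 297 after 1, 8 and 24 h with Pam3CSK4. The relb-/- array was the higher one in each of the 7 conditions, although the genotype ranges over all conditions overlapped, and the log2 difference was 1.26 ± 0.21 (adjusted p = 4.43e-04). Ddx58, which encodes the RNA sensor RIG-I, ran from 231 to 636 (median 309) in relb-/- cells and 87.7 to 288 (median 199.9) in WT cells, a difference of 1.10 ± 0.20 (adjusted p = 8.01e-04). Eif2ak2, which encodes PKR, a kinase that halts translation upon binding double-stranded RNA, ran from 789 to 1785 (median 1394) in relb-/- cells and 339 to 1389.7 (median 662) in WT cells, and differed by 1.02 ± 0.16. Both genes carry the ISRE core just after their start. Both had no overlap between the genotypes' unstimulated and 1 h arrays, as had 28 of 29 members without Isg20, against 10.4% of all genes tested. A part of the core in this was not tested. Ifih1, the gene of the RNA sensor MDA5, and Adar, which edits double-stranded RNA, differed less, by 0.68 ± 0.12 and 0.60 ± 0.087. Trim25, a ubiquitin ligase that acts on RIG-I in human cells, and Zbp1, a sensor of Z-form nucleic acids, had the smallest called differences of these sensors, 0.38 ± 0.12 (adjusted p = 0.037) and 0.31 ± 0.096 (adjusted p = 0.0376).

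Among the antiviral effectors, 8 of 9 tested genes were higher in relb-/- cells, or 7 of 8 without Isg20. Trim30a encodes a TRIM protein that dampens NF-kB signalling from Toll-like receptors in mice. Its intensities in relb-/- cells were 1156 unstimulated, 1170.4, 1423 and 1628 after 1, 8 and 24 h with CpG, and 1071, 1459 and 2313 after 1, 8 and 24 h with Pam3CSK4. In WT cells its intensities were 244 unstimulated, 237, 1001 and 719 after 1, 8 and 24 h with CpG, and 275, 1066 and 659 after 1, 8 and 24 h with Pam3CSK4. The lowest relb-/- array lay just above the highest WT array, and the log2 difference was 1.49 ± 0.22 (adjusted p = 1.41e-04). Mx2 and Mx1, of the family of dynamin-like GTPases, differed by 1.38 ± 0.24 (adjusted p = 6.95e-04) and 1.08 ± 0.18 (adjusted p = 4.66e-04). Mx2 ran from 112 to 457 (median 178) in relb-/- cells and 49.4 to 154 (median 74.9) in WT cells, so the WT level lay near the median of all values without stimulation. Samd9l, a restriction factor of poxviruses, differed by 1.07 ± 0.18 and Ly6e, a surface protein anchored in the membrane by a lipid, by 0.75 ± 0.12. Isg20, a 3′ exonuclease, had 6 of 7 relb-/- arrays above the median of all values, against 0 of 7 WT arrays, and its difference of 0.69 is given as a description. Trim21, a cytosolic antibody receptor, differed by 0.49 ± 0.13 and the dim Rtp4 by 0.26 ± 0.074. Bst2 encodes tetherin, which holds budding virions at the cell surface. It ran from 288 to 888 (median 390.0) in relb-/- cells and 142 to 752 (median 316) in WT cells, and relb-/- was the higher array in 5 of 7 conditions.

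The largest difference of the module was that of Phf11a. Phf11a and Phf11d, whose roles are less settled, encode closely related PHD finger proteins, and their probes may share signal. The counts of members include both, although their values may not be independent. Phf11a had intensities in relb-/- cells of 476 unstimulated, 515, 746 and 1421 after 1, 8 and 24 h with CpG, and 492, 572 and 1221 after 1, 8 and 24 h with Pam3CSK4. In WT cells its intensities were 78.9 unstimulated, 72, 473 and 419.7 after 1, 8 and 24 h with CpG, and 82.6, 226 and 201 after 1, 8 and 24 h with Pam3CSK4. The lowest relb-/- array lay just above the highest WT array, and the log2 difference was 2.05 ± 0.27 (adjusted p = 3.39e-05). Of the other Phf11a probes, 1 gave 1.98 and 1, at or below the median of all values on every array, gave 0.05. Phf11d differed by 1.54 ± 0.26 (adjusted p = 4.33e-04). Ifi27l2a, of the ISG12 family of small interferon-inducible membrane proteins, ran from 1555 to 3861 (median 2073) in relb-/- cells and 329.5 to 1383 (median 569) in WT cells without overlap, and differed by 1.94 ± 0.18 (adjusted p = 2.50e-07). Phf11a, Ifi27l2a and Trim30a were the 3 of 30 members whose 7 relb-/- arrays all lay above all 7 WT arrays, as were 0.473% of all genes tested. Tor3a, of the torsin family of ATPases, differed by 1.00 ± 0.13 (adjusted p = 1.73e-05).

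The enzymes and structural proteins of the module differed more moderately. Parp14 and Parp12, which attach ADP-ribose to proteins, differed by 1.01 ± 0.23 (adjusted p = 0.00495) and 0.98 ± 0.17 (adjusted p = 5.96e-04). Parp9 was dim, at 45.4 to 59.5 in relb-/- cells and 39.6 to 55.1 in WT cells. Ube2l6, the conjugating enzyme that transfers ISG15, ran from 137 to 301 (median 162) in relb-/- cells and 88.6 to 298 (median 129) in WT cells, with overlap. The 3 genes of PML nuclear bodies were all higher in relb-/- cells, by 0.78 ± 0.15 for the histone chaperone Daxx, 0.76 ± 0.17 for Pml, the scaffold of these bodies, and 0.69 ± 0.13 for Sp100. Lgals9, the gene of galectin-9, differed by 0.92 ± 0.15 and Lgals3bp, which encodes a secreted ligand of galectins, by 0.53 ± 0.12. Ifi35, whose protein binds that of Nmi, differed by 0.69 ± 0.15. Several probes were annotated to 8 members, and dim further probes of Trim21 and Pml showed values of 0.03 to 0.08 where their bright probes showed 0.49 and 0.76. The further probes of Tor3a, above the median of all values on all 21 arrays, showed 0.52 and 0.71 where its brightest showed 1.00.

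**Figure D2:**
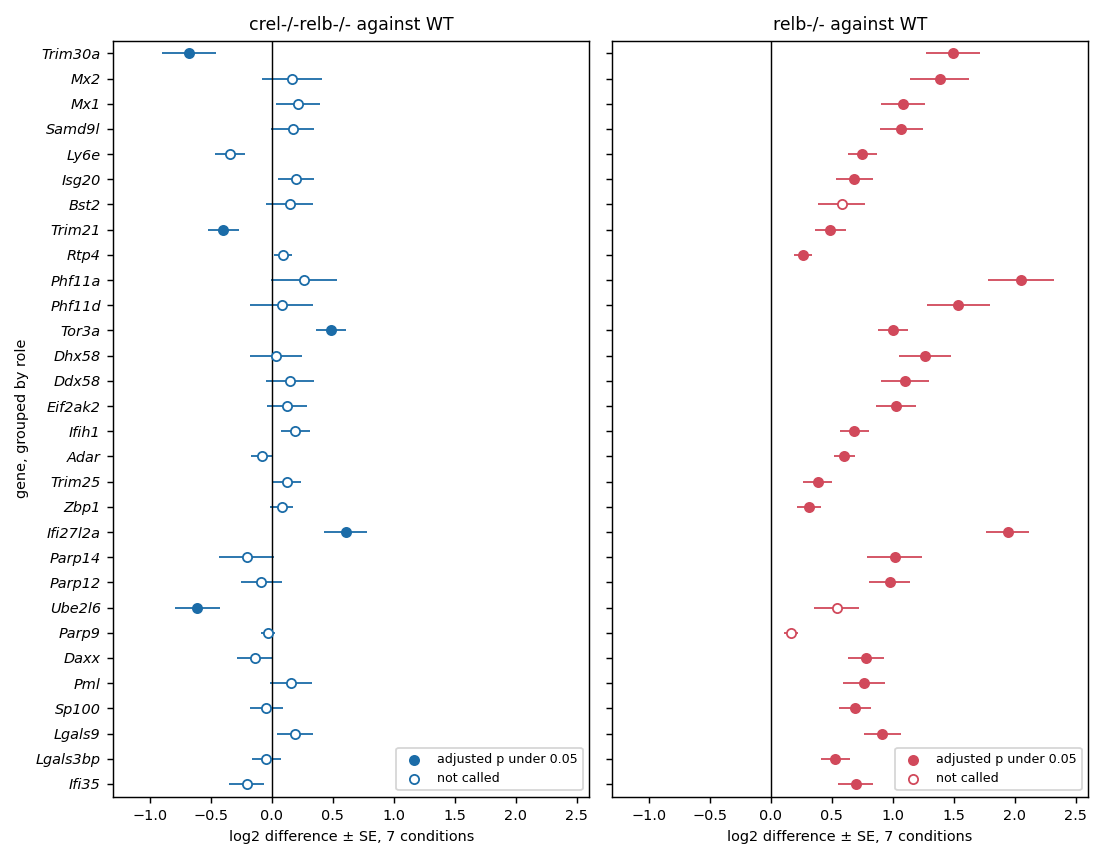
Log2 difference (points, with bars of 1 standard error, over 7 conditions) of each tested member, with crel-/-relb-/- against WT on the left and relb-/- against WT on the right. Filled points have an adjusted p under 0.05. On the right all 30 points lie above 0 and 27 are filled, while on the left the points scatter about 0 and 5 are filled.

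The excess in relb-/- cells was present before stimulation. On the arrays at 0 h and 1 h, where neither agent gave a called member, the lowest of the 3 relb-/- arrays lay above the highest of the 3 WT arrays for 29 of 30 members (all but Parp9), or 28 of 29 without Isg20, against 10.4% of all genes tested. In a fit of these early arrays alone, chosen after seeing the data, 28 members were called higher in relb-/- cells with a median of 1.04, where 5.51% of all genes were called higher. Isg20 was among the 28 and is no support. In a fit of the arrays at 8 and 24 h alone, 6 were called higher with a median of 0.70, where 2.06% of all genes were. Single arrays showed where the difference narrowed. The median member difference between relb-/- and WT was 1.04 unstimulated, 1.08, 0.19 and 0.91 after 1, 8 and 24 h with CpG, and 0.97, 0.39 and 1.24 after 1, 8 and 24 h with Pam3CSK4. At 8 h with CpG, 24 of 30 members still had a higher value in relb-/- cells. The interaction term of genotype with late time (8 and 24 h) had a median of -0.39 for the late difference minus the early one. It called 0 members in either direction, where 0.113% of all genes were called higher and 0.0567% lower, and 9 members had an unadjusted p under 0.05. Trim30a had the lowest value in that test, -1.18 ± 0.37 (adjusted p = 0.42).

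**Figure D3:**
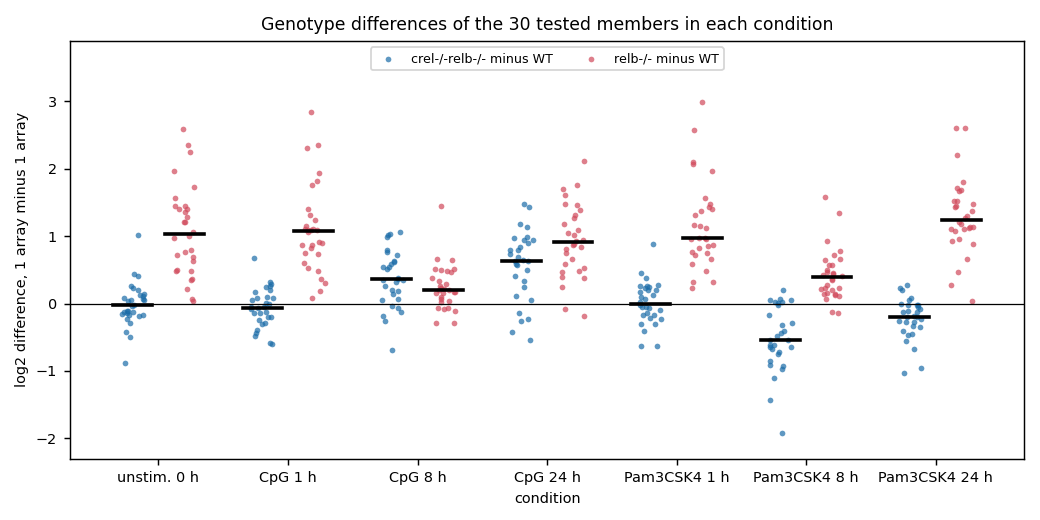
Log2 difference of each of the 30 tested members between single arrays of 2 genotypes in each condition, with crel-/-relb-/- minus WT to the left of relb-/- minus WT, and black bars at the medians. The relb-/- medians lie near 1 except at 8 h, and the crel-/-relb-/- medians lie near 0 at 0 and 1 h, above 0 at 8 and 24 h with CpG, and below 0 at 8 and 24 h with Pam3CSK4.

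The resting level in relb-/- cells was set beside what WT cells reached after stimulation. The unstimulated relb-/- array exceeded the WT array at 8 h with CpG for 7 of 30 members, at 8 h with Pam3CSK4 for 17, at 24 h with CpG for 16, and at 24 h with Pam3CSK4 for 25. For all genes tested these shares were 48.9%, 49.4%, 47.4% and 49.7%. Trim30a, at 1156 in unstimulated relb-/- cells, exceeded its WT level at 8 h with either agent, 1001 with CpG and 1066 with Pam3CSK4. At 25 of 30, the count against Pam3CSK4 at 24 h lay farthest above the share of all genes. The median member stood 0.55 above its own unstimulated level at 8 h with CpG in relb-/- cells and 1.46 above it in WT cells. At 24 h with CpG the medians were 1.00 in relb-/- cells and 0.89 in WT cells. These are differences of single arrays without a test.

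**Figure D4:**
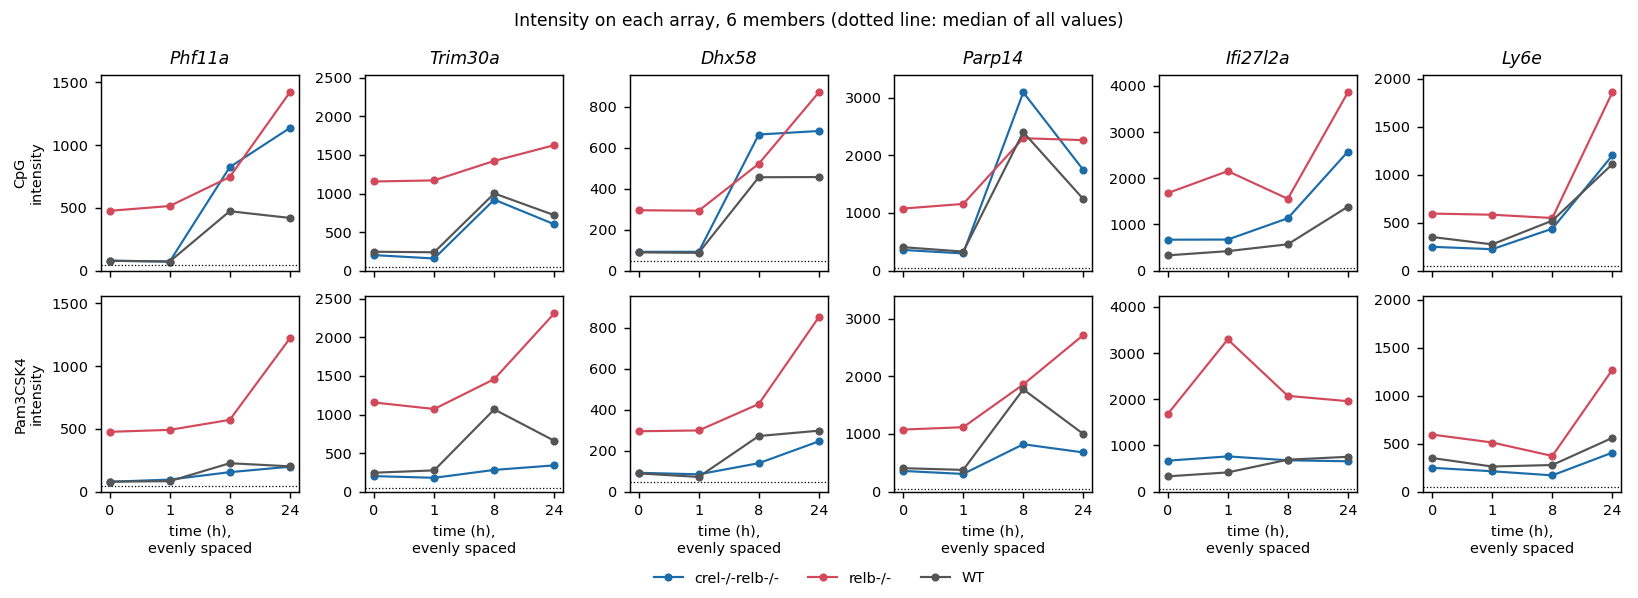
Intensity (vertical axes, from 0) of 6 members against time, with CpG in the upper row and Pam3CSK4 in the lower row, each point 1 array, and the same unstimulated array at 0 h in both rows. The relb-/- line starts above the others in each panel. The crel-/-relb-/- line starts near or under WT, except for Ifi27l2a, where it starts above WT, and it climbs with CpG. With Pam3CSK4 it stays near or under WT at 8 and 24 h in all panels, and at 1 h in all but that of Ifi27l2a.

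In crel-/-relb-/- cells the median member lay above the WT level on the late arrays with CpG and below it on those with Pam3CSK4. On single arrays, without a test, the median member difference between crel-/-relb-/- and WT was -0.03 unstimulated, -0.06, 0.36 and 0.64 after 1, 8 and 24 h with CpG, and -0.0013, -0.54 and -0.20 after 1, 8 and 24 h with Pam3CSK4. At 8 and 24 h the crel-/-relb-/- array was the higher one for 24 and 25 of 30 members with CpG, but for 7 and 5 with Pam3CSK4. Over all conditions, in crel-/-relb-/- cells against WT cells, 2 of 30 members were higher and 3 lower, where 7.65% of all genes tested were called higher and 7.73% lower, and the median difference was 0.08. That median averages these opposite values, and it was -0.05 when the CpG array of crel-/-relb-/- cells at 8 h was left out and -0.01 when that at 24 h was. This comparison shares the 7 WT arrays with that of relb-/- cells, so their values are given side by side only. Ifi27l2a was higher by 0.61 ± 0.18 (adjusted p = 0.0225) and Tor3a by 0.49 ± 0.13 (adjusted p = 0.0114). Trim30a was lower, at -0.68 ± 0.22 (adjusted p = 0.0433), as were Ube2l6, at -0.61 ± 0.19 (adjusted p = 0.0303), and Trim21, at -0.40 ± 0.13 (adjusted p = 0.0385). Trim30a was the lower one in crel-/-relb-/- cells in 7 of 7 conditions, with intensities of 200.4 unstimulated, 157, 920.4 and 601 after 1, 8 and 24 h with CpG, and 178, 281 and 339.9 after 1, 8 and 24 h with Pam3CSK4. When each of the 21 arrays was left out in turn, Tor3a kept its call in 21 fits, Ifi27l2a in 15, Ube2l6 in 14, Trim30a in 11 and Trim21 in 10. These fits used the probe of Tor3a with the highest mean log2 intensity. Its further probes, above the median of all values on all 21 arrays, gave 0.25 and 0.16 in place of 0.49. The further probes of Trim21, dim at 40.3 to 58.3 and 48.2 to 63.9, gave 0.02 and 0.04 in place of -0.40. Tor3a alone was called without the unstimulated crel-/-relb-/- array. The test of the late difference minus the early one had a median of 0.09, which was -0.12 when the CpG array of crel-/-relb-/- cells at 8 h was left out, -0.07 when that at 24 h was, and -0.02 when the WT array at 24 h with CpG was. It called 0 members, where 0.161% of all genes were called higher and 0.217% lower, and 1 member had an unadjusted p under 0.05. On the arrays at 0 and 1 h alone, 2 members were called higher and 4 lower, where 7.14% of all genes were higher and 6.08% lower. On those at 8 and 24 h alone 0 members were called in either direction, where 3% of all genes were higher and 3.43% lower. In that late fit 4 of 30 members had an unadjusted p under 0.05, a count not taken over all genes.

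Against relb-/- cells, 26 of 30 members were lower in crel-/-relb-/- cells and 0 were higher, where 9.29% of all genes tested were called lower and 10.5% higher. The median difference was -0.89 and the values of all 30 lay below 0. Without Isg20, which passed the filter only through relb-/- arrays, 25 of 29 were called lower. Trim30a fell most, at -2.17 ± 0.22 (adjusted p = 6.48e-07), then Phf11a at -1.79 ± 0.27, Phf11d at -1.46 ± 0.26, Ifi27l2a at -1.34 ± 0.18 (adjusted p = 1.42e-05) and Dhx58 at -1.23 ± 0.21. Bst2, Rtp4, Trim25 and Zbp1 were not called, with values of -0.44, -0.17, -0.26 and -0.23. This comparison and that of relb-/- with WT share the relb-/- arrays, so the values are not independent. At 0 and 1 h every crel-/-relb-/- array lay below every relb-/- array for 28 of 30 members (all but Isg20 and Rtp4), against 13% of all genes tested. The early fit called 29 members lower, where 7.21% of all genes were, and the late fit 10, where 4.62% were. Isg20 was among the 29 of the early fit and is no support. In the single condition of 8 h with CpG the order turned, and 21 of 30 members had a higher value in crel-/-relb-/- than in relb-/- cells, with a median of 0.15 and no test. Markers of other cell types moved in the same comparison. The summed intensity of 10 plasmacytoid dendritic cell markers was 1168 to 1462 in crel-/-relb-/- cells and 1527 to 1773 in relb-/- cells, without overlap, and of the 7 tested Tcf4 and Cox6a2 were lower and Ly6d higher. Of 8 macrophage markers 6 were higher (Adgre1, Mertk, C1qa, C1qb, C1qc, Mrc1) and 1 lower (Fcgr1), with sums of 3521 to 10904 in crel-/-relb-/- cells and 2810.3 to 8171 in relb-/- cells. Of 9 tested neutrophil markers 6 were higher and 1 lower, of 4 eosinophil markers 3 were higher, and of 6 markers of T and NK cells 3 were higher and 1 lower. Of 8 conventional dendritic cell markers 3 were higher and 3 lower. The part of these cells in the members' differences was not tested.

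No member passed the test at 1 h with either agent. Over the 3 genotypes, 0 of 30 were called after 1 h with CpG, where 0.265% of all genes were called higher and 0.123% lower, and 0 members had an unadjusted p under 0.05. After 1 h with Pam3CSK4, 0 of 30 were called, where 1.15% of all genes were called higher and 0.378% lower, and again 0 members had an unadjusted p under 0.05.

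After 8 h with CpG, 25 of 30 members rose and 0 fell, with a median log2 difference of 1.25, where 13.2% of all genes tested were called higher and 13.2% lower. Parp14 rose most. Its intensity at 8 h with CpG was 3091 in crel-/-relb-/-, 2296 in relb-/- and 2400.3 in WT cells, against 357, 1075 and 405 unstimulated in the same order of genotypes. All stimulated values lay above all unstimulated ones, and the log2 difference was 2.26 ± 0.34 (adjusted p = 3.58e-05). The next were Phf11a at 2.21 ± 0.42 (adjusted p = 3.61e-04), Phf11d at 2.20 ± 0.39, Dhx58 at 2.01 ± 0.32 (adjusted p = 6.71e-05) and Mx2 at 1.74 ± 0.37. The 5 members that did not pass were Isg20 (0.54), Ifi27l2a (0.48), Ly6e (0.43), Trim25 (-0.19) and Parp9 (-0.23). Marker sums of other cell types also differed after 8 h with CpG. The neutrophil sum was 6507.8 to 8056.4, against 1326.1 to 2901.5 unstimulated. The eosinophil sum was 434.9 to 880.5, against 886.2 to 1573.1 unstimulated. The part of these cells in the members' rises was not tested.

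After 24 h with CpG, 27 of 30 members were higher than in unstimulated cells and 1, Parp9, was lower, where 14.9% of all genes tested were called higher and 12.3% lower, and the median was 1.19. Ly6e and Ifi27l2a, which had not been called at 8 h, differed by 1.86 ± 0.19 (adjusted p = 1.11e-07) and 1.74 ± 0.27 (adjusted p = 4.00e-05). Ly6e had 1202, 1859.9 and 1111 at 24 h with CpG in crel-/-relb-/-, relb-/- and WT cells, against 248, 595 and 350.2 unstimulated, without overlap. Phf11a (2.62), Phf11d (2.57), Dhx58 (2.27) and Bst2 (1.95) had the largest rises at this time. Parp9 fell by 0.24 (adjusted p = 0.0424), a small difference of a dim probe. One array, that of crel-/-relb-/- cells after 24 h of CpG, deviated most from the fit, with a residual SD of 0.189 against 0.0966 to 0.141 on the other arrays, and without it 24 members were called higher and 1 lower after 24 h with CpG, with a median of 0.99, where 14.1% of all genes were called higher and 11% lower. Without that array 30 members were called higher in relb-/- than in WT cells, where 7.73% of all genes were. Isg20, which is no support, was among the 30. Between crel-/-relb-/- and WT cells 1 member was called higher and 4 lower, where 8.81% of all genes were higher and 8.52% lower. Against relb-/- cells 29 members were called lower in crel-/-relb-/- cells, where 9.62% of all genes were. Markers of other cell types also moved at 24 h with CpG. Of 8 macrophage markers 5 were higher (Adgre1, Fcgr1, C1qb, C1qc, Cd14) and 1 lower (Mrc1), with a summed intensity of 7180.1 to 9009.8 after 24 h with CpG and 3165.8 to 4215.4 unstimulated. Of 8 tested conventional dendritic cell markers 5 were lower (Itgax, Batf3, Irf4, Cd24a, Kmo) and 1 higher (Sirpa), and the sum of all 11 was 1943.7 to 2306.7 after 24 h with CpG and 3180.6 to 3493.5 unstimulated. The sum of 11 neutrophil markers was 10951 to 16381 after 24 h with CpG and 1326.1 to 2901.5 unstimulated, with 4 of 9 tested genes higher and 2 lower. The sum of 5 eosinophil markers was 257.9 to 421.5 after 24 h with CpG and 886.2 to 1573.1 unstimulated. The part of these cells was not tested.

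Pam3CSK4 gave fewer calls. After 8 h with it, 12 of 30 members rose and 2 fell, with a median of 0.57, where 12.5% of all genes tested were called higher and 13.6% lower. The size of the rise differed between genotypes on single arrays, without a test. The median member stood 0.97 above its own unstimulated level on the WT array. That median was 0.32 for relb-/- cells and 0.47 for crel-/-relb-/- cells. Of 30 members, 14 rose at least 2-fold on the WT array, against 0 for relb-/- and 1 for crel-/-relb-/- cells. The shares of all genes tested that did so were 2.73% for WT, 2.4% for relb-/- and 2.32% for crel-/-relb-/- cells. Values above 0 numbered 27, 26 and 27 in the same order. Parp14 rose by 1.37 ± 0.34 (adjusted p = 0.00478), followed by Eif2ak2 at 1.04 ± 0.25, Lgals9 at 0.98 ± 0.23, Trim30a at 0.98 ± 0.34 and Dhx58 at 0.91 ± 0.32 (adjusted p = 0.0415). Ly6e fell by 0.52 (adjusted p = 0.0419), with 169, 372 and 277 in crel-/-relb-/-, relb-/- and WT cells, against 248, 595 and 350.2 unstimulated, so each genotype's value dropped while the genotypes overlapped. Parp9 fell by 0.26 (adjusted p = 0.0315). The count of called members is fragile. It was 4 without the WT array at 8 h with Pam3CSK4 and 5 without the unstimulated crel-/-relb-/- array. It was 6 without the unstimulated WT array and 7 without the relb-/- array at 8 h with Pam3CSK4. The neutrophil sum was 11523 to 12523 after 8 h with Pam3CSK4, above all unstimulated arrays. The eosinophil sum was 439.8 to 803.9, below all of them. The part of these cells in the members' rises was not tested.

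After 24 h with Pam3CSK4, 17 members rose and 1 fell, with a median of 0.71, where 14.5% of all genes tested were called higher and 13.4% lower. On single arrays, without a test, the median member's rise over its unstimulated level was largest for relb-/- cells, at 1.04. It was 0.70 for WT cells and 0.46 for crel-/-relb-/- cells. Members that rose at least 2-fold numbered 17, 9 and 5 of 30 in the same order, where 3.73%, 3.04% and 3.05% of all genes tested did. Dhx58 rose by 1.56 ± 0.32 (adjusted p = 8.17e-04), Phf11a by 1.35 ± 0.42, Phf11d by 1.23 ± 0.39, Parp14 by 1.19 ± 0.34 and Pml by 1.15 ± 0.26 (adjusted p = 0.00199). Parp9 fell by 0.34 (adjusted p = 0.00421). Here 1 array decided the count of called members, which was 6 without the relb-/- array at 24 h with Pam3CSK4. The macrophage sum was 8171 to 10904 after 24 h with Pam3CSK4 and the neutrophil sum 23638 to 26202, both above all unstimulated arrays. The conventional dendritic cell sum was 1951.9 to 2266.6 and the eosinophil sum 256.8 to 374.8, both below all of them. The part of these cells in the members' rises was not tested.

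Side by side at 8 and 24 h, CpG gave higher values than Pam3CSK4 for most members, but few passed the test. At 1 h the values of 15 of 30 members lay above 0, with a median of -0.0009. At 1 h 0 members were called, where 0.0851% of all genes tested were called higher and 0.482% lower with CpG, and 0 members had an unadjusted p under 0.05. At 8 h all 30 members had a value above 0 with a median of 0.62 and 20 had an unadjusted p under 0.05. One member, Ly6e, was called, at 0.95 ± 0.19 (adjusted p = 0.0488), where 0.0567% of all genes were called higher and 0.0473% lower. At 24 h Ifi27l2a (1.28 ± 0.27, adjusted p = 0.0119) and Ly6e (1.03 ± 0.19, adjusted p = 0.00365) were called higher with CpG and 0 members lower, where 1.32% of all genes were called higher and 1.14% lower. The count at 8 h was 16 without the relb-/- array at 8 h with CpG and 0 without any of 16 other arrays. The count at 24 h was 1 without either crel-/-relb-/- array at 24 h, and 4 without any of 4 others, the WT array at 24 h with CpG, the relb-/- arrays at 8 and 24 h with CpG, and the relb-/- array at 24 h with Pam3CSK4.

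On single arrays the gap between the agents was widest in crel-/-relb-/- cells. There CpG gave the higher value for 30 of 30 members at 8 h (median log2 difference 1.35) and for 30 of 30 at 24 h (median 1.14). In relb-/- cells it did so for 24 members at 8 h (median 0.21) and 15 at 24 h (median -0.02). In WT cells it did so for 25 members at 8 h (median 0.35) and 24 at 24 h (median 0.28). Phf11a, for example, had 824 and 155 at 8 h with CpG and with Pam3CSK4 in crel-/-relb-/- cells, and 473 and 226 in WT cells. The agents' difference between crel-/-relb-/- and WT cells was tested with an interaction term on the 18 stimulated arrays. The value was above 0 for 29 of 30 members with a median of 0.52, and 7 had an unadjusted p under 0.05, but 0 members were called in either direction, as were 0% of all genes tested. The highest values were those of Phf11d (1.14 ± 0.44, adjusted p = 0.961) and Ddx58 (1.01 ± 0.35, adjusted p = 0.961). For relb-/- against WT cells the same test gave a median of -0.20, or 0.06 without the relb-/- array at 8 h with CpG, with 0 members and 0% of all genes called and 0 members with an unadjusted p under 0.05.

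Genes of the interferon pathway itself were read from lists chosen with earlier results of these data known. Between relb-/- and WT cells, 6.04% of all genes tested were called higher and 5.64% lower. Of 11 tested interferon genes, 4 were higher in relb-/- than in WT cells and 0 lower. Ifnb1, which encodes interferon-β, ran from 96.9 to 487 (median 150.2) in relb-/- cells and 34.6 to 51.9 (median 40.9) in WT cells without overlap, and differed by 1.99 ± 0.24 (adjusted p = 8.79e-06), a fold that is understated because WT cells lay near the median of all values. Outside relb-/- cells Ifnb1 exceeded that median at 51.9 in WT cells and at 103 and 56.9 in crel-/-relb-/- cells. Ifna5, Ifna2 and Ifna4 differed by 0.80, 0.50 and 0.29. Whether they passed the filter on dim probes only through relb-/- arrays was not checked. Their differences, and the count of 4 that includes them, are thus a description and no support. Of 9 tested genes of receptors and JAK-STAT signalling, Stat2 (0.88), Irf9 (0.59) and Jak1 (0.50) were higher in relb-/- cells and Ifngr1 (-0.32) was lower. Of 7 interferon regulatory factors, Irf7, which drives interferon-α transcription, was higher (1.60 ± 0.27, adjusted p = 4.68e-04) and Irf8 lower (-0.88). Of 14 sensors and adaptors, Ikbke, Tlr1 and Tbk1 were higher and 0 lower. Of 7 negative regulators, Usp18, which removes ISG15 and blocks the interferon receptor, was higher (1.63 ± 0.27, adjusted p = 4.51e-04), as was Ptpn11 (0.19).

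In crel-/-relb-/- against WT cells, 0 of 11 interferon genes were called, where 7.65% of all genes tested were called higher and 7.73% lower. Ifnb1 differed by 0.13 ± 0.24 (adjusted p = 0.781). In these cells Ifnb1 had intensities of 35.5 unstimulated, 39.7, 103 and 56.9 after 1, 8 and 24 h with CpG, and 36.7, 38.8 and 34.1 after 1, 8 and 24 h with Pam3CSK4, so that only the arrays with CpG at 8 and 24 h lay above the median of all values. Irf7 in these cells was 199.9 and 517 at 8 and 24 h with CpG, and 37.3 and 63.4 with Pam3CSK4. Of the other lists, 1 receptor gene was lower (Jak2), 1 interferon regulatory factor was higher (Irf3) and 3 lower (Irf1, Irf4, Irf8), 1 adaptor was higher (Mavs) and 1 negative regulator was lower (Socs3).

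**Figure D5:**
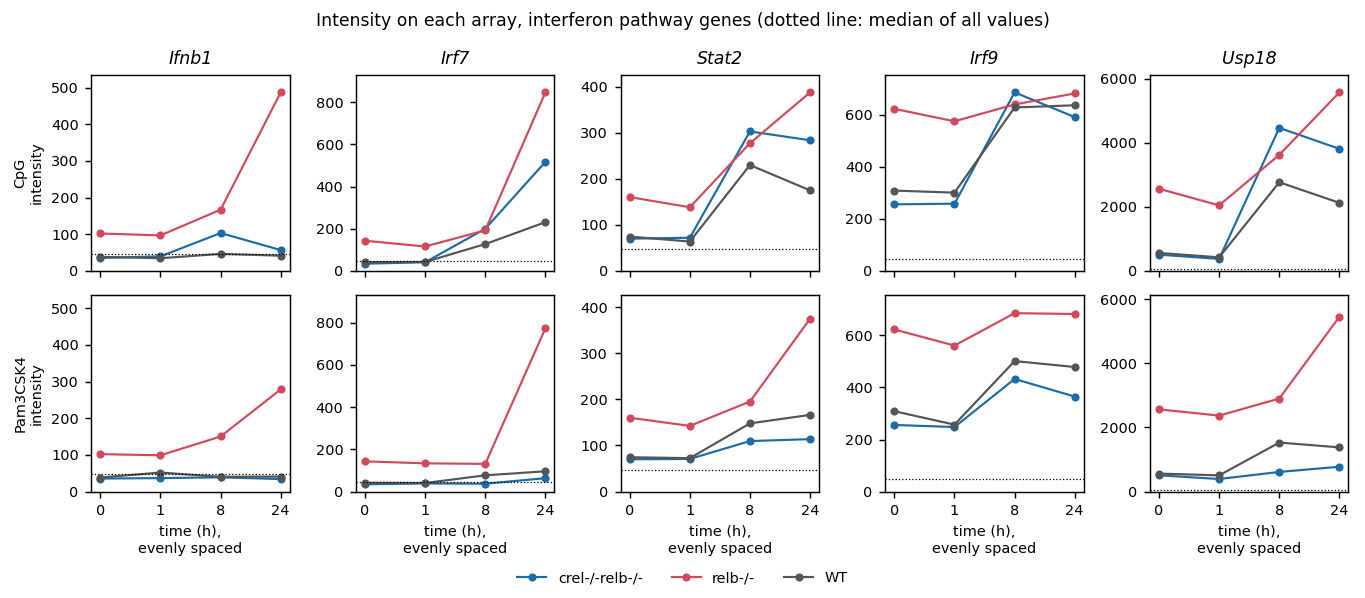
Intensity (vertical axes, from 0) of 5 interferon pathway genes against time, with CpG in the upper row and Pam3CSK4 in the lower row, each point 1 array, and the same unstimulated array at 0 h in both rows. The relb-/- line of Ifnb1 starts at 102 and ends at 487 with CpG, while the WT line stays between 34.6 and 51.9 throughout.

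The labels were checked against the targeted genes. Relb was lower in crel-/-relb-/- (60.6 to 179.7, median 99.6) and relb-/- cells (65.9 to 153, median 109.7) than in WT cells (148 to 267, median 228), without full loss of signal. Rel was near or under the median of all values in crel-/-relb-/- cells (33.6 to 45.5, median 37.2), against 101 to 214 (median 109) in relb-/- cells and 61.1 to 206 (median 107) in WT cells. Markers of other cell types were read beside the excess of the module in relb-/- over WT cells, where 6.04% of all genes tested were called higher and 5.64% lower. Of 7 tested markers of plasmacytoid dendritic cells, which make much interferon, 0 were called, and the summed intensity of all 10 listed was 1527 to 1773 in relb-/- cells and 1450.4 to 1690.2 in WT cells, with Spib, Ccr9 and Klk1 too dim to test. Of 8 conventional dendritic cell markers 1 was lower (Irf8), with a summed intensity of all 11 listed of 2145 to 3494 in relb-/- and 2267 to 3473 in WT cells, and the defining markers Flt3, Xcr1 and Clec9a were too dim to test. Of 6 markers of T and NK cells, 5 were lower and 1 higher (Klrd1), and the summed intensity of all 8 listed was 354 to 422 in relb-/- and 579 to 739.5 in WT cells, without overlap. Of 8 macrophage markers 2 were higher (Adgre1, Fcgr1) and 4 lower (C1qa, C1qb, C1qc, Mrc1), and the sums were 2810.3 to 8171 in relb-/- and 3233 to 9551 in WT cells. Of 9 neutrophil markers 2 were higher and 2 lower, of 4 eosinophil markers 1 was higher, of 3 B cell markers 0 were called, and the 1 tested mast cell marker was lower. The part of these cells in the members' differences was not tested.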

How the data were processed

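Total RNA of 21 samples was labelled with biotin and hybridised to 1 Illumina mouse array each, per the labels' protocols. The authors deposited normalized intensities, on a linear scale, of 25697 probes, and these were analysed. The array medians lay between 47.1 and 47.4, the background was not subtracted, so folds of dim genes are understated, and how the arrays were normalized is not stated in the sources used here. A second table with 21 columns of unnormalized signals was not used, because its column names match no sample's labels. No 2 arrays held identical values.

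Names come from GEO's annotation of the platform, brought up to date by Entrez ID with RefSeq (GRCm38.p6). Of all probes, 23978 had 1 gene symbol, 0 several, and 1719 were not listed. A gene entered the tests through its probe with the highest mean log2 intensity, where the 3rd highest of its 21 values exceeded the overall median, 47.3. No detection p-values were used.

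Log2 intensities were tested with limma 3.58.1 in R 4.3.3 (lmFit, eBayes with an intensity trend, two-sided), with Benjamini-Hochberg adjustment over the 10576 genes tested and a call at an adjusted p under 0.05. A fit of genotype plus condition to the 21 arrays (12 residual degrees of freedom) gave the genotype, time and agent comparisons. Interactions of genotype with late time (10 degrees of freedom) and with agent (18 arrays, 8 degrees of freedom) tested whether a difference itself differed, 16 comparisons in all. Errors after ± are standard errors of the fit. Precision is limited by the number of arrays. The scripts were tested on simulated data.

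Any of the 35 members could be named; those given with full values in a comparison are up to 5 called members with the largest rise and 5 with the largest fall, and others as their roles required. The members, lists and rules were chosen with earlier results of these data known, and the fits within early or late arrays after seeing the data. Promoter windows are RefSeq's. Alternatives changed the offset, normalization, filter, probe rule, trend, array weights and arrays.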

Additional observations from a re-analysis of the deposited data

How the results depend on the processing

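Leaving out each of the 21 arrays in turn changed the number of members called to 24 to 30 for relb-/- against WT (27 with all arrays) and 24 to 29 for crel-/-relb-/- against relb-/- (26), and to 1 to 6 for crel-/-relb-/- against WT (5). It gave 23 to 27 for 8 h with CpG (25), 23 to 29 for 24 h with CpG (28), 4 to 18 for 8 h with Pam3CSK4 (14), 6 to 23 for 24 h with Pam3CSK4 (18), 0 to 16 for CpG against Pam3CSK4 at 8 h (1) and 1 to 4 at 24 h (2). The comparisons with 0 called members kept 0 in all these settings. The counts with arrays left out are over the 30 tested members, Isg20 included. For crel-/-relb-/- against WT, the mean of all passing probes gave 2. For CpG against Pam3CSK4 at 8 h, an offset of 16, no filter, a stricter filter, no trend and the mean of all passing probes each gave 0, and at 24 h array weights gave 1. On the arrays at 8 and 24 h alone, chosen after seeing the data, with fewer arrays in the fit, relb-/- against WT had 6 called members, crel-/-relb-/- against WT 0 and crel-/-relb-/- against relb-/- 10. Leaving out of that fit the crel-/-relb-/- array of 24 h of CpG as well gave 8, 1 and 14. No called value of a single named member changed sign under the alternatives. For single members these included leaving out the 24 h CpG arrays or the genotype not compared. Fits without each array in turn, or of early or late arrays alone, were not among them. The median over the members did change sign for crel-/-relb-/- against WT (0.08, with -0.05 to 0.15 over the settings), its late minus early difference (0.09, -0.12 to 0.27), the relb-/- difference between agents (-0.20, -0.51 to 0.06) and the comparisons at 1 h (-0.06 to 0.14 for CpG, -0.07 to 0.05 for Pam3CSK4 and -0.08 to 0.10 between them). Of 427 values of single named members under the alternatives, 17 lost their call. The cause of these changes was not tested. Over all genes tested, the genes called numbered 1236 for relb-/- against WT (418 to 1674 over the settings), 1627 for crel-/-relb-/- against WT (680 to 1943) and 2097 for crel-/-relb-/- against relb-/- (1012 to 2358). They numbered 41 (18 to 106) and 162 (112 to 288) at 1 h with CpG and Pam3CSK4. Between the agents they numbered 60 (32 to 113), 11 (3 to 124) and 261 (108 to 419) at 1, 8 and 24 h. For the tests of late minus early differences they numbered 18 (4 to 27) and 40 (13 to 78). No pairing of arrays by culture or animal was possible, because the labels give no replicate numbers to use as a block. The fit itself compares the genotypes within matched conditions.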
